A study of Mus musculus with 16 samples.

Results

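Of 136630 nuclear ATAC-seq peaks, 5797 (4.24%) varied by at most 1.6-fold over all 16 samples of pancreatic tumour cells, whether the cells grew in the pancreas, the liver or the lungs and whether Smad4 was off or on. They were selected on measured values: the mean of the 16 normalised read counts had to be at least 100, and the highest of the 16 could be at most 1.6 times the lowest. Only 50154 peaks reached that mean, and the invariant peaks made up 11.6% of them. About 2 in 3 invariant peaks were promoters (3806, or 65.7%), against 19.3% of the 44357 peaks of the same minimum level that varied more. The others lay in introns (839), exons (75) and between genes (1077), and those that held a sequence match to the insulator protein CTCF were invariant more often than those that did not. Since every sample entered the choice, levels and ratios of these peaks are given below as a description, with no test.

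ATAC-seq reads chromatin accessibility by cutting open DNA with the Tn5 transposase. The cells came from KC-shSmad4 tumours, which carry, among other alleles, Ptf1a-Cre (Cre driven by a pancreatic progenitor promoter), a Rosa26 cassette of rtTA3 and the red fluorescent protein mKate2, and, at Col1a1, a hairpin RNA that doxycycline induces to silence Smad4. Cells of cultured tumour-derived lines were injected into the pancreas, into the spleen to reach the liver, or into the tail vein to reach the lungs of female Foxn1nu nude mice of 6 to 8 weeks, which lack a thymus, and 60000 mKate2-positive cells were sorted per sample. All hosts were fed doxycycline, which keeps Smad4 off (Panc_OFF and Lung_OFF with n = 3, Liv_OFF with n = 2), and in the other samples it had been withdrawn 14 days earlier, which restores Smad4 (Panc_ON and Lung_ON with n = 3, Liv_ON with n = 2). The drug was withdrawn 4 weeks after injection for pancreas, 5 for liver and 6 for lung samples, so organ, injection route and growth time cannot be told apart. Which tumour line gave which sample was not given in the sources used here, and each sample came from its own mouse. In such bulk samples, a peak open in fewer cells and a peak less open in every cell cannot be told apart.

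A peak that stays the same across tissues is often a promoter of a gene that every cell uses. Many such promoters lie in CpG islands, stretches rich in unmethylated CG dinucleotides that stay free of nucleosomes, and are bound by broadly expressed factors such as SP1, NRF1, ETS proteins and NF-Y. Sites of CTCF, which with cohesin shapes chromatin loops, are also known to be shared between cell types, whereas enhancers bound by factors such as AP-1, RUNX, FOX or HNF4 tend to differ.

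Between 22.5 M and 37.5 M reads fell in nuclear peaks per sample, of which 19.6% to 21.9% fell in the invariant ones. The epithelial markers Krt8, Krt18, Krt19, Epcam and Cdh1 all had a start-site peak, with summed normalised counts of 11359 to 42481 per sample, while 7 of 11 markers of leukocytes, fibroblasts, endothelium, hepatocytes and lung epithelium had a peak within 5000 bp of their start site, with sums of 1235 to 2492. None of these marker peaks was invariant. The sum for the other cell types was 1787 and 2295 in Liv_OFF and 1592 to 2485 in Lung_OFF, and its part in the results below was not tested.

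Reference sequence (GRCm38.p6, plus strand) from 9 invariant peaks is given as examples. They were picked by a small range or a CTCF match and do not represent the set. Peaks outside promoters with a CTCF match made up 2.40% of the invariant peaks. Capitals mark matches to the searched motifs. Of the 10 peaks with the smallest range, 3 promoters with GC boxes (GGGCGG or CCGCCC, bound by SP and KLF factors) are shown together with Vps54, whose stretch also holds the ZNF143 motif ACTACAAT on the minus strand. The stretches of Art3, Sec24b, Usp47 and Sh3pxd2b, also among these 10, held other motifs and are not shown.

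Crtc3 promoter, chr7:80688879-80688998: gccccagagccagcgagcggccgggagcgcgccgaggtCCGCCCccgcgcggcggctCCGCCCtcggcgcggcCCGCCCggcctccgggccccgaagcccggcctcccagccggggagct
Phf2 promoter, chr13:48870442-48870561: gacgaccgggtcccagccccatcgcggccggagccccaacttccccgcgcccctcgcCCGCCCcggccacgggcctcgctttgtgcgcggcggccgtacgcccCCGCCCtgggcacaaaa
Abhd15 promoter, chr11:77514549-77514668: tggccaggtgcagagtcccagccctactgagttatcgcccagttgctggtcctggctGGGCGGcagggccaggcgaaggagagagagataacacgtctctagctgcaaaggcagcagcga
Vps54 promoter, chr11:21239744-21239863: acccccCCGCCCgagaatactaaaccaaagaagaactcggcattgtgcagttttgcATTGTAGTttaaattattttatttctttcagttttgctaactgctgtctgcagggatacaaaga

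The Crtc3 stretch held 3 GC boxes, its centre lay 61 bp upstream of the start site, and the observed over expected CpG ratio of the central 300 bp of its peak was 1.06. The most even peak of all lay between genes, nearest to Tubb2b, and its central stretch held the RUNX motif TGTGGTTT on the minus strand and had a CpG ratio of 0.0781.

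Intergenic near Tubb2b, chr13:34112725-34112844: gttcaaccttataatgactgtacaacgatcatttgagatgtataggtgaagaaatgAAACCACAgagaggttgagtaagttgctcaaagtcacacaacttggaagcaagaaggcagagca

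The next 4 stretches are from peaks outside promoters with a CTCF match, which were singled out after their values were seen. They are the 4 with the smallest range outside annotated exons. The capitals cover the 12 bases of the match.

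Galnt7 intron, chr8:57531142-57531261: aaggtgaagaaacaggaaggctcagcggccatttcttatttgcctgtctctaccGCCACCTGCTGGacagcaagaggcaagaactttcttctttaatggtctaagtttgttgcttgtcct
Intergenic near Tex44, chr1:86440618-86440737: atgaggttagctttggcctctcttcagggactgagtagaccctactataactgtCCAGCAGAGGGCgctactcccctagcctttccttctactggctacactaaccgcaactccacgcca
Intergenic near Btbd10, chr7:113378060-113378179: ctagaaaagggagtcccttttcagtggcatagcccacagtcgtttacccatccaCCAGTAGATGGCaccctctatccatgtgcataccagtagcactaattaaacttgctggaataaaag
Dlg4 intron, chr11:70020916-70021035: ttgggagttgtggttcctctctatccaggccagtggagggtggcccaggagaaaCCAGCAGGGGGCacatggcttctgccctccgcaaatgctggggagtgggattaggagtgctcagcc

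Where invariant peaks lie was examined first, with a promoter peak defined as one whose edge is within 1000 bp of a protein-coding start site (GENCODE vM21). Of promoter peaks with a mean of at least 100, 30.8% were invariant (3806 of 12357, 95% Wilson interval 30.0% to 31.6%). The share was 7.30% of exonic, 4.77% of intronic and 5.62% of intergenic peaks. A start site lay inside 98.7% of the invariant promoter peaks and 94.7% of the variable ones of the same minimum level. Peaks that contained start sites of genes on both strands were invariant in 40.5% of cases (444 of 1095), and peaks with any other start site inside in 30.8%. The former were also stronger (median mean count 1264 against 859) and wider (median 2017 against 1814 bp), and the part of level and width was not tested. Wilson intervals cover counting error over peaks only, and neighbouring peaks are not independent.

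The share depended on level, and a low peak has a larger counting error. Among peaks with a mean from 100 to 200, 4.55% of promoters and 2.16% of other peaks were invariant. The shares rose to 32.5% and 7.88% from 400 to 800, and to 38.3% and 17.6% from 800 to 1600. Above 3200 they were 35.1% (131 of 373) and 40% (30 of 75), so the gap between promoters and other peaks was not seen among the strongest peaks.

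**Figure D1:**
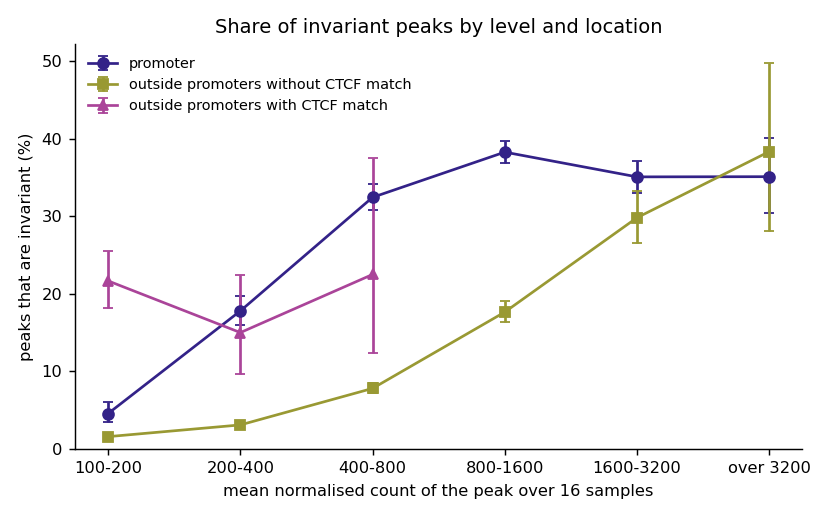
Share of peaks that were invariant (y axis, percent) by mean normalised count over the 16 samples (x axis, 6 ranges), for promoters and for peaks outside promoters with and without a CTCF match. Bars are 95% Wilson intervals and ranges with under 20 peaks are not drawn. Promoters climb from 4.55% to 38.3%, while peaks with a CTCF match are already at 21.7% in the lowest range.

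Invariant peaks were wide and strong. Their median width was 1772 bp (quartiles 1211 and 2564), against 1213 bp for the variable peaks of the same minimum level and 588 bp for all nuclear peaks. Within promoters the medians were 1916 and 1737 bp, and outside promoters 1382 and 1118 bp. The median of their mean normalised counts was 892, against 262. Per kb of peak they held a median of 476 normalised counts, against 234. Low peaks have a larger counting error and met the limit less often, as given above, so level is not independent of the choice. The part of width in the higher level was not tested. Repeat-masked bases covered a median of 11.3% of an invariant peak and 13.2% of a variable one.

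Base composition followed location. The central 300 bp of invariant promoters had a median GC content of 63.0% and a CpG ratio of 0.760, and 71.9% of them reached a ratio of 0.6 (CpG-rich). The variable promoters had 61.3%, 0.692 and 59.4%. A promoter peak with a CpG-rich centre was invariant in 35.0% of cases and one with a CpG-poor centre in 23.6%. This order held in the 4 lower ranges of level, with 25.4% against 8.55% at means from 200 to 400, and was the opposite above 1600, with 33.3% against 38.2% at means from 1600 to 3200. In a wide peak the centre can lie far from the start site (9725 bp at Smad7). These classes therefore do not measure CpG content at the start site. Invariant CpG-poor promoter peaks were also wider than CpG-rich ones (median 2510 against 1765 bp), and the part of width was not tested. Outside promoters, 18.3% of CpG-rich peaks (267 of 1459) and 4.74% of CpG-poor peaks were invariant. Of the 1991 invariant peaks outside promoters of protein-coding genes, 251 (12.6%) lay within 1000 bp of the start site of some other annotated transcript, against 5.90% of the variable ones.

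CTCF matches marked a small class of invariant peaks. A match on either strand was found in the central 300 bp of 6.98% of invariant peaks outside promoters (139 of 1991), 1.47% of variable ones and 2.20% of all nuclear peaks outside promoters. Read the other way, 20.9% of the 664 peaks with a match and 4.99% of the 37133 without one were invariant. The contrast was widest at low level: from 100 to 200 the shares were 21.7% (104 of 480) and 1.57% (250 of 15934), from 200 to 400 they were 15% (18 of 120) and 3.08%, and from 400 to 800 they were 22.5% (9 of 40) and 7.79%. Invariant peaks with a match were narrow and low, with a median width of 526 bp and a median mean count of 157, whereas those without one had 1460 bp and 648. With a limit of 1.5 in place of 1.6 the shares were 9.49% and 2.80%. Within promoters the match was rare in both sets (0.552% and 0.865%).

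Other motifs were compared in the same way. GC boxes were present in 53.1% of invariant and 48.8% of variable promoter windows, and in 15.6% and 7.91% outside promoters. The ETS motif CCGGAAGT was found in 4.83% and 3.12% of promoter windows, and the NRF1 motif GCATGCGC in 2.73% and 2.06%, while the CCAAT box was found in 24.1% and 27.0%. Outside promoters, the AP-1 motif TGAGTCA was present in 23.7% of invariant and 27.8% of variable windows, the FOX motif TGTTTAC in 4.32% and 6.16%, the RUNX motif in 3.62% and 4.41%, and the HNF4 motif CAAAGTCCA in 0.452% and 0.922%. Over all nuclear peaks outside promoters these were at 29.5%, 6.59%, 5.07% and 1.11%. All were searched on both strands in windows of the same length and may overlap one another. A match of this kind is a description of the letters, and GC content differed between the sets as given above.

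The peaks with the smallest range show how even the set can be. At the top stood the intergenic peak nearest to Tubb2b (a beta-tubulin gene whose start site is 17522 bp from the midpoint), at chr13:34111952-34113713 on mm10, which covers the start of the noncoding transcript 4930447K03Rik. Its normalised counts were 1253, 1179 and 1215 in Panc_OFF, 1186, 1130.2 and 1182 in Panc_ON, 1160.1 and 1220.5 in Liv_OFF, 1214 and 1254 in Liv_ON, 1129, 1281 and 1205 in Lung_OFF, and 1254, 1213 and 1210.3 in Lung_ON. The Panc_ON samples lay below those of Liv_ON and Lung_ON, the other pairs of groups overlapped, and the highest and the lowest value were both from Lung_OFF. An intronic peak of Art3 (chr5:92367964-92370013) came next, with 1379 to 1608 and a ratio of 1.17. The first promoter was shared by Abhd15 and Trp53i13 (chr11:77512782-77516466), with 1276 to 1494 and a ratio of 1.17.

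Crtc3, a coactivator of CREB, had a CpG-rich promoter peak at chr7:80687709-80689959. Its counts were 1175, 1072 and 1098 in Panc_OFF, 1061, 1059.7 and 1083 in Panc_ON, 984 and 1087 in Liv_OFF, 996 and 1003 in Liv_ON, 1157, 1004 and 993 in Lung_OFF, and 1105, 1076 and 1103 in Lung_ON. Both Liv_ON samples were below all samples of Panc_OFF, Panc_ON and Lung_ON, and the other pairs of groups overlapped, within a ratio of 1.19 over all samples. Of the 10 smallest ratios, 7 belonged to promoters: besides Abhd15 and Crtc3 these were Sec24b (a coat protein of vesicles leaving the endoplasmic reticulum, ratio 1.19), Usp47 (a deubiquitinase, counts of 1139 to 1365), Sh3pxd2b (a podosome adaptor, 2582 to 3097), Vps54 (part of a Golgi tethering complex, ratio 1.21) and Phf2 (a histone demethylase, ratio 1.21). Over all members the ratio ran from 1.13 up to the limit, with a median of 1.48, and only 241 of them were at 1.3 or below. The median ratio over all peaks with a mean of at least 100 was 2.90.

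**Figure D2:**
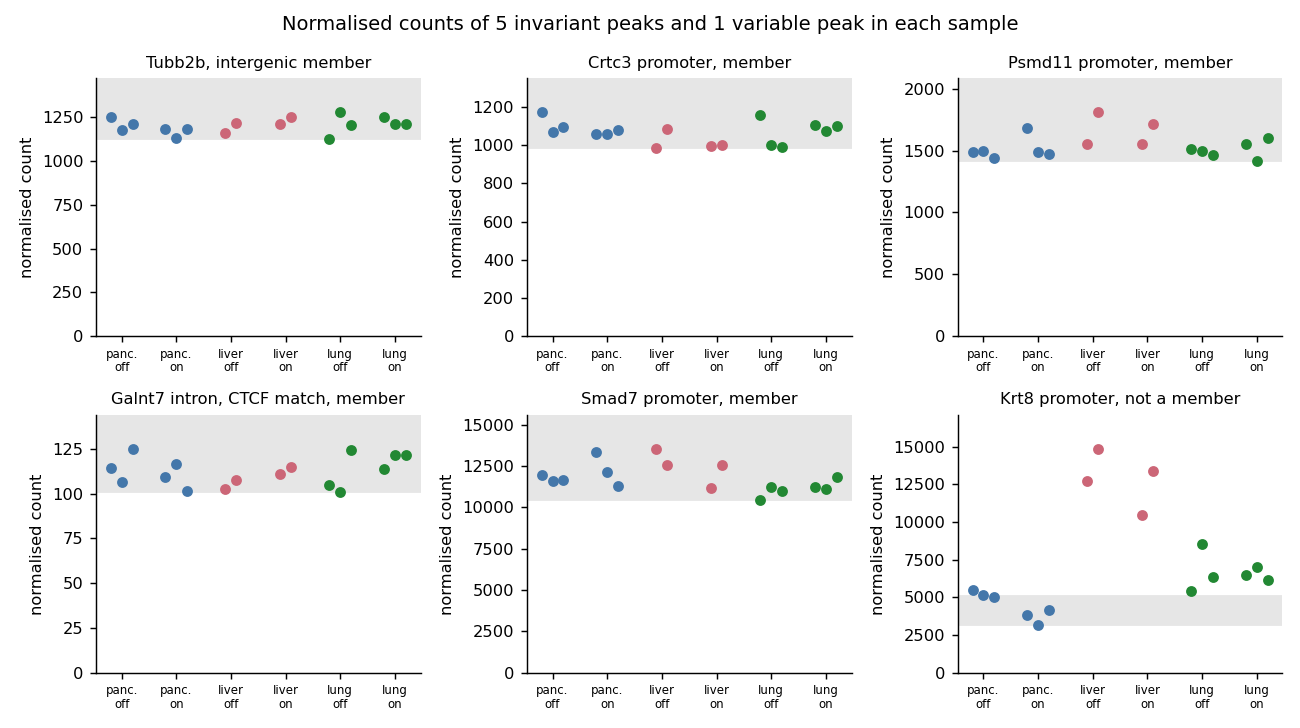
Normalised count (y axis, from 0) of 6 peaks in each of the 16 samples, ordered by organ and Smad4 state (x axis). The grey band runs from the lowest value to 1.6 times it. The 5 invariant peaks stay inside the band, while the Krt8 promoter runs from 3179 in the pancreas to 14859 in the liver.

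Among invariant peaks with a CTCF match, the smallest range was in an intron of Galnt7, with Hmgb2 as the nearest start site (chr8:57530745-57531445). Its counts were 114, 106 and 125 in Panc_OFF, 109, 116 and 101 in Panc_ON, 102 and 107 in Liv_OFF, 111 and 115 in Liv_ON, 105, 101 and 124 in Lung_OFF, and 113, 122 and 121 in Lung_ON. The 2 Liv_OFF samples were below all samples of Liv_ON and Lung_ON, and the other pairs of groups overlapped. The peak near Tex44 (chr1:86437336-86444162) was far stronger, with 4202 to 5446, and also held a GC box and a CCAAT box. Peaks near Btbd10 (323 to 423), in an intron of Dlg4 (1051 to 1379) and in an exon of Dand5 (176 to 233) followed, with ratios from 1.31 to 1.32.

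The strongest invariant peaks were broad domains. Lmna, which encodes the nuclear lamins A and C, had a mean of 11918 over chr3:88477683-88504539 (26857 bp). Its counts were highest in Panc_ON_1 (14785) and lowest in Lung_ON_2 (10777), and all 3 Panc_OFF samples (12415 to 13664) were above the 10 samples from liver and lungs (10777 to 11806). Smad7, the inhibitory Smad and itself a TGF-beta target, came second with a domain of 28150 bp (chr18:75365627-75393776). Its counts were 11972, 11618 and 11648 in Panc_OFF, 13385, 12123 and 11276 in Panc_ON, 13556 and 12581 in Liv_OFF, 11186 and 12578 in Liv_ON, 10426, 11259.8 and 10972 in Lung_OFF, and 11234, 11089 and 11832 in Lung_ON. Smad4 on and off samples overlapped in the pancreas and the lungs, while in the liver both Liv_OFF samples were above both Liv_ON samples, narrowly at the nearest pair. Another 4 invariant peaks outside promoters were assigned to this gene. Dusp4, a MAP kinase phosphatase, had 7255 to 10572, and Plec, which encodes plectin, had 6684 to 10407.

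Some wide invariant peaks were not promoters of protein-coding genes. A peak of 21734 bp near Zswim4, with its midpoint in an exon (chr8:84199868-84221601) contains the start sites of the microRNA genes Mir23a, Mir27a and Mir24-2, and had counts of 6791 to 10717. The widest of all, 87033 bp at chr8:123537297-123624329, covers 51 annotated rRNA genes, most of them copies of 5S rRNA. It was 79.8% repeat-masked and held only 21.9 normalised counts per kb, and since its copies are near identical, reads there cannot be assigned to 1 of them. Sqstm1, a receptor for selective autophagy, had the fifth widest peak (18713 bp), with 5435 to 8382.

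Genes used in every cell were examined next. Of 12464 protein-coding genes with a start site in a peak of mean at least 100, 4203 (33.7%) had an invariant one. A gene was counted as invariant if any of its start-site peaks was, even where others varied. Genes with more start-site peaks thus had more chances to be counted. Proteasome subunits stood highest among the lists, with 24 of 31 (77.4%). They included Psmd11, a subunit of the regulatory lid, at chr11:80428071-80431024 with counts of 1491, 1498 and 1444 in Panc_OFF, 1685, 1489 and 1471 in Panc_ON, 1553 and 1814 in Liv_OFF, 1555 and 1720.4 in Liv_ON, 1517, 1502 and 1462 in Lung_OFF, and 1553, 1419.5 and 1604 in Lung_ON. Its highest value was from Liv_OFF_2 and its lowest from Lung_ON_2, and the Liv_OFF samples lay above those of Panc_OFF and Lung_OFF. Psma6 and Psmc3, of the core and the base, had 957 to 1312 and 728 to 1018, and the 7 subunits without an invariant peak were Psma2, Psma3, Psma4, Psmb2, Psmc2, Psmc4 and Psmd13. The count depends on the limit: at 1.5 the share was 29.0%, against 19.4% of all genes, and with samples scaled by their total reads in peaks it was 100%, against 65.8%.

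The other lists of basic machinery lay closer to the share of all genes. Cohesin and CTCF had 7 of 14 (50%), among them Nipbl, which loads cohesin, Smc3 and Ctcf itself. Aminoacyl-tRNA synthetases had 17 of 36 (47.2%), RNA polymerase II and general transcription factors 19 of 43 (44.2%), the spliceosome 17 of 39 (43.6%), cytosolic ribosomal proteins 32 of 76 (42.1%), DNA replication and repair 16 of 38 (42.1%), the nuclear-encoded respiratory chain 29 of 74 (39.2%) and the mitochondrial ribosome 24 of 75 (32%). These lists hold few genes, so a difference of a few genes moves each share by several points. Named examples with the smallest ranges were Polr2g (528 to 691), a subunit of RNA polymerase II, Sf3a1 (818 to 1055), a splicing factor, Gars (662 to 905), the glycyl-tRNA synthetase, and Xrcc5 (614 to 818), which encodes the Ku80 repair protein.

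Rpl23a, a protein of the large ribosomal subunit, had a promoter peak at chr11:78182630-78184228. Its counts were 730.2, 712 and 729 in Panc_OFF, 865, 673 and 678 in Panc_ON, 860.2 and 818 in Liv_OFF, 772 and 780.0 in Liv_ON, 751, 690.1 and 720.3 in Lung_OFF, and 693, 694 and 696 in Lung_ON. Both Liv_OFF samples were above all samples from Panc_OFF, Lung_OFF and Lung_ON, and of all samples only Panc_ON_1 was higher. The peak with the smallest ratio in the list contains the start sites of both Rpl7 and Rdh10 (3232 to 4065), so its level cannot be assigned to 1 of them.

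Genes often used as references in PCR had an invariant start-site peak in 6 of 18 cases (33.3%), near the share of all genes. They included Tubb5, Gusb, B2m, Eef1a1 and Polr2a, whereas Actb, Gapdh, Hprt, Tbp, Ppia and Ywhaz were among those that were not. Tubb5 had 1982 to 2747 and Gusb 608 to 853. Accessibility at a start site is not a measure of RNA level, which was not part of these data.

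**Figure D3:**
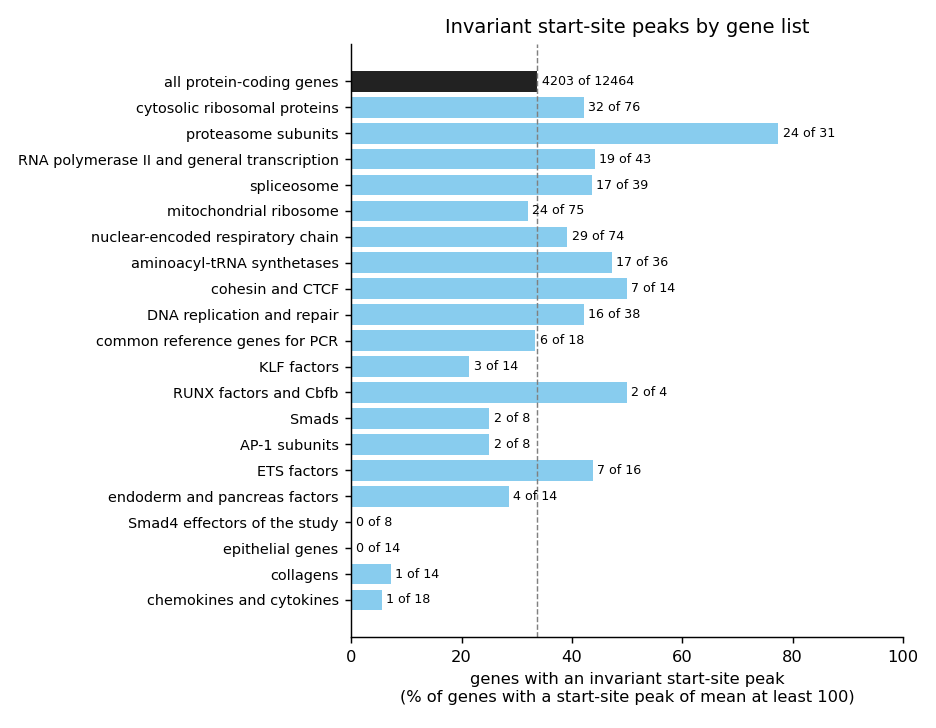
Share of genes with an invariant start-site peak (x axis, percent of the genes with a start-site peak of mean at least 100) for 20 gene lists and, in black, all protein-coding genes. Numbers beside the bars give both counts and the dashed line the share of all genes (33.7%). Proteasome subunits reach 77.4%, and the epithelial and Smad4 effector lists are at 0.

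Among regulatory genes, 7 of 16 ETS factors had an invariant start-site peak (43.8%), including Etv4 and Elk1, and so did 2 of 4 genes of the RUNX family with Cbfb (50%). The share of all genes was 33.7%, and these lists are small, so nothing is read from their shares. Runx1, a factor of blood and epithelial cells, had a start-site peak at chr16:92694465-92699031. Its counts were 2709, 2483 and 2595 in Panc_OFF, 2894, 2404 and 2368 in Panc_ON, 3358 and 3249 in Liv_OFF, 2585 and 3054 in Liv_ON, 2409.8, 2702 and 2373 in Lung_OFF, and 2313, 2388 and 2569.9 in Lung_ON. The 2 Liv_OFF samples were the highest of all 16, and the ratio was 1.45. Runx2 had 2203 to 3106. Of the 27 peaks of mean at least 100 assigned to Runx1, 4 were invariant, beside 11.6% of all peaks at that level.

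Of 14 KLF factors, Klf5, Klf6 and Klf7 had an invariant start-site peak (21.4%, beside 33.7% of all genes). Klf5 was close to the limit with a ratio of 1.58. Its counts were 2548, 2186 and 2290.2 in Panc_OFF, 2670.4, 2355 and 2376 in Panc_ON, 3287 and 3457 in Liv_OFF, 2587 and 3150.3 in Liv_ON, 2282, 2639.7 and 2399 in Lung_OFF, and 2301, 2238 and 2322 in Lung_ON. The Liv_OFF samples and Liv_ON_2 were the highest. Of endoderm and pancreas factors, Gata6, Onecut2, Pdx1 and Sox9 were invariant (4 of 14, or 28.6%). Pdx1, a factor of the pancreatic lineage, had 2394 to 3449.5, and Sox9, of ductal cells, 2729 to 4112. Among Smads and AP-1 subunits, 2 of 8 (25%) were invariant in each list (Smad7 and Smad1, Fosl1 and Batf3). These lists, too, are small, and nothing is read from their shares.

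Few or no genes of the more tissue-dependent lists were invariant at their start sites, beside 33.7% of all genes. Epithelial genes such as Krt8, Cdh1 and Epcam had 0 of 14, and the Smad4 effectors named by the study 0 of 8. The effector list was taken from the study, and all lists were written with earlier results of these data known. None of them is therefore independent of these samples. Collagens had 1 of 14, which was Col18a1 (1167 to 1442), and chemokines and cytokines 1 of 18, which was Csf1 (884 to 1213). At the Krt8 promoter, the counts were 5482, 5122 and 5002 in Panc_OFF, 3838, 3179 and 4185 in Panc_ON, 12717 and 14859 in Liv_OFF, 10462 and 13368 in Liv_ON, 5399.6, 8541 and 6316 in Lung_OFF, and 6454, 7024 and 6157 in Lung_ON. The liver samples were all above the lung samples, and the lung samples above the pancreas samples except that Lung_OFF_1 was below Panc_OFF_1. The ratio was 4.67.

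Outside promoters, the 1991 invariant peaks lay at a median of 20603 bp from the nearest protein-coding start site, against 29305 bp for the variable ones, and 9.19% against 18.4% were over 100 kb away. Those within 100 kb were spread over 1452 nearest genes, of which 1199 had a single one and 74 had 3 or more. Arntl, a core clock factor, had 6 invariant peaks among its 20 outside promoters with a mean of at least 100, Myc 4 of 8, Actg1, a cytoplasmic actin, 4 of 5, Cebpb 4 of 21 and Foxp1 4 of 36. Over all peaks outside promoters the share was 5.27%, and these genes were picked from those with the most such peaks, so nothing is read from their shares. The nearest gene is an assignment by distance only.

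How the invariant peaks vary within their limit was then described. The median coefficient of variation over the 16 samples was 11.3%, against a median of 3.37% that counting of reads alone would give if no read were a duplicate. In peaks with means from 100 to 200 the values were 12.2% and 8.35%, and above 3200 they were 10.9% and 1.62%. For variable peaks the median was 33.2%, a contrast that the limit itself builds in.

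With the deposited scaling, the highest values came most often from the liver. The highest of the 16 values was from a liver sample in 62.6% of invariant peaks (3631), although the liver gave 4 of 16 samples, and Liv_OFF_2 alone held it in 2361. The lowest value was from the pancreas in 46.6%, from the lungs in 40.6% and from the liver in 12.8%. By sample, the median log2 deviation from the mean of the peak ran from −0.13 in Panc_ON_3 to 0.22 in Liv_OFF_2. The liver was also raised in the variable peaks, with medians of 0.09 and 0.13 in Liv_OFF and 0.03 and 0.15 in Liv_ON, against 0.14 and 0.22 and 0.01 and 0.13 in the invariant ones. Among the invariant peaks, a liver sample was highest more often in CpG-rich promoters (78.3%) than in CpG-poor promoters (66.2%), peaks outside promoters without a CTCF match (39.1%) and those with one (40.3%). As a share of the reads in peaks, the invariant peaks held 19.8% to 20.3% in liver, 20.1% to 21.9% in pancreas and 19.6% to 20.7% in lung samples. The organ of the highest value was not read under another scaling, so no higher accessibility of these peaks in the liver is read from it. Without Liv_OFF_2, 7768 peaks met the limits, and 44.8% of promoters past the mean level were invariant. Liv_OFF_2 also had the largest share of mitochondrial reads (3.56%), whose part in this was not tested.

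**Figure D4:**
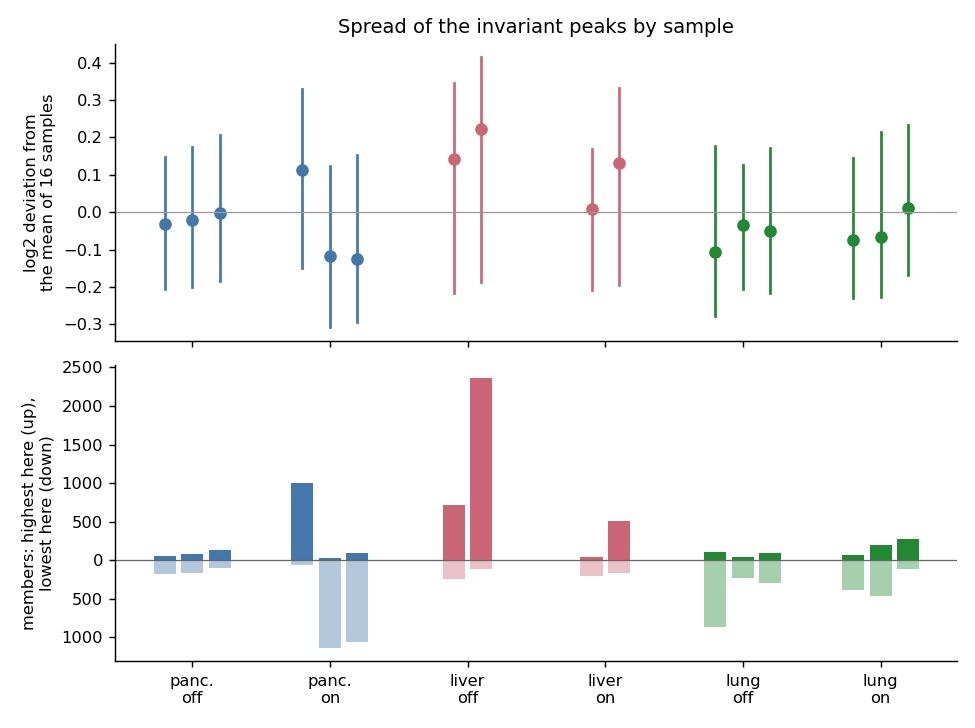
Spread of the invariant peaks by sample. Upper panel, log2 deviation of each sample from the mean of the peak (points, medians; lines, 5th to 95th percentile). Lower panel, number of invariant peaks in which a sample held the highest (up) or lowest (down) value. Liv_OFF_2 is highest in 2361 peaks, and Panc_ON_2 and Panc_ON_3 are lowest in 1138 and 1062.

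Group means differed less than single samples. The highest of the 6 group means was at most 1.56 times the lowest, with a median of 1.28, against 2.35 for variable peaks. The limit of 1.6 on single values also caps the ratio of group means. The smaller ratios and narrower ranges of the invariant peaks were therefore built into the choice. Between Smad4 on and off, the median log2 difference was −0.01 in the pancreas (5th to 95th percentile −0.21 to 0.18), −0.11 in the liver (−0.28 to 0.16) and 0.02 in the lungs (−0.12 to 0.20). For variable peaks these ranges were −0.88 to 0.70, −0.53 to 1.09 and −0.56 to 0.48. With Smad4 off, the liver exceeded the pancreas by a median of 0.20 and the lungs by 0.24, and with Smad4 on by 0.11 for both. For variable peaks the same medians were 0.17 and 0.09 with Smad4 off and 0.22 and 0.04 with Smad4 on. A liver excess was thus not particular to the invariant peaks. With Smad4 off, the liver minus pancreas difference ran from −0.21 to 0.43 in invariant and −2.55 to 1.84 in variable peaks (5th to 95th percentile). The limit keeps this range narrow, so a shift of similar size puts more invariant peaks above 0. The shares that follow are therefore not read as a trait of the invariant peaks. With Smad4 off, the liver exceeded the pancreas in 79.0% of invariant and 54.4% of variable peaks, and the lungs in 82.7% and 52.6%. With Smad4 on, these shares were 70.8% and 56.1% for the pancreas and 70.4% and 51.8% for the lungs.

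Invariant peaks were found on all autosomes and the X chromosome, but not evenly. They made up 14.8% of the peaks of mean at least 100 on chromosome 11, 14.7% on the X chromosome, 7.61% on chromosome 4 and 5.86% on chromosome 6. Of 202 windows of 10 Mb with at least 100 such peaks, the median share was 11% and the highest 25.6%, on chromosome 7 from 120 to 130 Mb. The 2 windows with none were next to each other on chromosome 6, from 130 to 150 Mb. These 2 windows held 489 peaks of mean at least 100, against 7.12% invariant of the 2276 below 130 Mb. In them the median log2 deviation reached 1.65 in Lung_OFF_1. It was 0.62 in Panc_ON_3, 0.49 in Lung_OFF_2 and from −0.60 to 0.29 elsewhere. Without Lung_OFF_1 the windows held 7 invariant peaks.

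Because every sample entered the choice, evenness was also read in samples that a choice had not used. With the same limits, 11034 peaks were chosen in the 8 Smad4-off samples alone, and 70.9% of them (7819) stayed within 1.6-fold over the 8 Smad4-on samples. Of all 49817 peaks with a mean of at least 100 in the choosing samples 22.8% did so, and of those not chosen 9.13%. In the opposite direction the shares were 69.1% of the chosen and 21.8% of all. Samples of the same organ stand on both sides of these readings.

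When a whole organ was held out, the other organs chose the peaks. Of 10743 peaks chosen without the pancreas, 86.3% stayed within 1.6-fold over its 6 samples, against 47.3% of all peaks past the mean level. For the lungs, with 7874 chosen, the shares were 93.6% and 50.6%, and for the liver, with 13658 chosen and only 4 samples read, 94.9% and 62.1%. Fewer samples give a smaller range, so the organs are not ranked by these shares. They describe the range within the organ held out, not its level against the other organs.

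**Figure D5:**
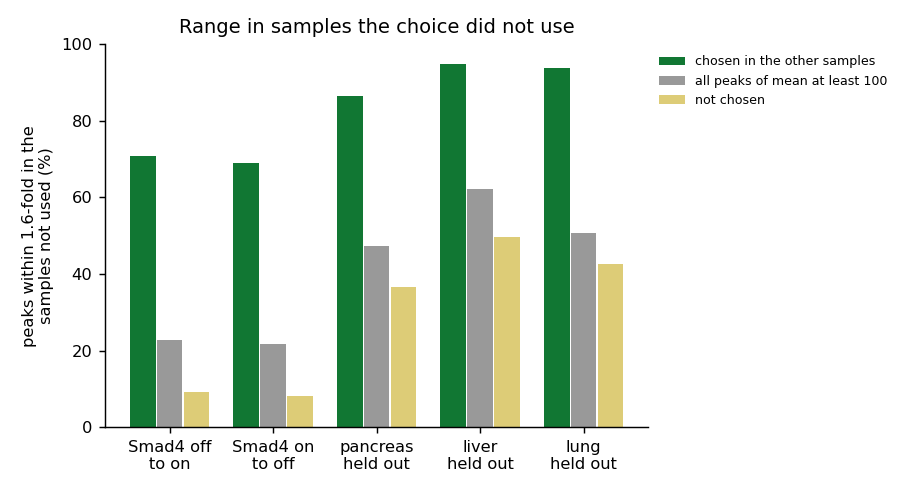
Share of peaks whose highest value was at most 1.6 times the lowest in samples that the choice did not use (y axis, percent), for 5 choices of samples (x axis; the first 2 choose in one Smad4 state and read the other). Green bars are peaks chosen in the other samples, grey bars all peaks with a mean of at least 100, and yellow bars those not chosen. Green bars run from 69.1% to 94.9%, above the grey bars (21.8% to 62.1%) in each split.

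At the edges of the choice, peaks on either side had nearly the same ratio or mean, by which they were picked. Just inside the ratio limit stood intronic peaks of Rdh10 (229 to 367) and Ncoa7 (106 to 169.6) and an intergenic peak near Odc1 (607 to 970.5), and just outside it the promoter of Slc2a1 (1269 to 2030.2) and intergenic peaks near Gm17651 and 1700016C15Rik, all at the limit to the second decimal. Just above the mean level of 100 stood peaks near Zer1 (80.3 to 128), Mtus2 (85.1 to 132) and Ccbe1 (85.4 to 132), and just below it peaks near Syt1 (78.6 to 125), Tmem63a (74.3 to 118) and Dusp4 (78 to 116). There is no gap in the distribution at the ratio limit: 3302 peaks had a ratio of at most 1.5, 5797 of at most 1.6 and 10827 of at most 1.8.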

How the data were processed

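ATAC-seq of 16 samples in 6 groups of organ and Smad4 state was analysed. Groups came from the sample titles. Columns of the table give doxycycline state, read as Smad4 off under the drug and on after its withdrawal, and lung columns carry day 15 although the labels state 14. The deposited table holds normalised counts per peak, treated here as a signal. To make them, the authors (per the study's methods) used Trim Galore with cutadapt for trimming, Bowtie2 for alignment to mm10 and MACS2 for peaks, dropped blacklisted regions and joined peaks closer than 500 bp, so that every sample is read over 1 common atlas. Reads per peak came from featureCounts and were scaled by DESeq2 size factors. The deposited table is called filtered without a stated filter. Transposase shifting and duplicate removal were not stated, and duplicates would make counting error look too small. Merging widens peaks where sites lie close together, and size factors set which peaks look even.

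Dividing by the smallest step of each sample gave whole reads (100% of values, tolerance 0.01), so reads were recovered. No count test was run, because the choice of peaks uses all samples and no result is tested. Start coordinates were taken as 0-based and are given as 1-based. The mitochondrial row was left out. Gene positions were from GENCODE vM21 basic and sequence from RefSeq GRCm38.p6. Peaks were assigned to the protein-coding gene with the nearest start site. GC content, CpG ratio and 14 motifs were read in the central 300 bp of each peak. Intervals are 95% Wilson intervals and cover counting error only. The counting spread came from the recovered reads. The code of the choice was run on simulated data with even peaks that varied by counting error alone and peaks far higher in a single sample. This checks the code only, since real peaks varied by more than counting error. Python 3.11.15 with pandas 2.3.3, numpy 2.4.6 and scipy 1.17.1 was used, and edgeR 4.0.16 gave TMM factors.

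Members and lists were chosen with earlier results of these data known. Named peaks were the 10 with the lowest ratio, the 5 strongest, the 5 outside promoters with the lowest ratio, the 5 widest, 3 on each side of each limit, and up to 4 per gene list. The 5 peaks with a CTCF match were added after values were seen. A few items are not reported here. Alternatives were other limits (1.5, 2; means of 50 and 200), a pseudocount of 10, TMM, total reads, quantile and GC-trend scaling, group means, second extremes, leaving out each sample, and promoter distances of 500 and 2000 bp, start sites of all genes, and motif windows of 200 and 500 bp. A promoter set by the peak midpoint, and the alternatives for the CTCF and proteasome shares, were chosen after seeing the data.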

Additional observations from a re-analysis of the deposited data

Results flagged for a closer look

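Reads on the mitochondrial row, which no comparison used, reached 3.56% of the reads in the table in the highest sample (Liv_OFF_2), and were flagged as a signal outside the main measurement.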

How the results depend on the processing

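The number of invariant peaks was set by the limits and the scaling. It was 3302 at a ratio limit of 1.5 and 14658 at 2, 9836 with total-read scaling, 9987 with quantile normalisation, 8746 with a GC-trend correction, 15108 over the 6 group means and 12485 with the second extremes, and it stayed within 1.5 times the value given in 4 alternatives. The promoter share was 56.7% at a limit of 2, 63.5% and 69.7% at means of 50 and 200, 63.9% with a pseudocount of 10, 69.4%, 75.1%, 75.6% and 75.3% with TMM, total, quantile and GC-trend scaling, 51.8% over group means, 58.7% with second extremes, 67.0% with a distance of 2000 bp and 70.0% with start sites of all genes. With the peak midpoint in place of its edge, chosen after seeing the data, it was 60.9%. The median width was 1842.5 bp and 1626 bp at limits of 1.5 and 2, 1731 bp and 1852 bp at means of 50 and 200, 1729 bp with the pseudocount, 1823 bp with quantile and 1740 bp with GC-trend scaling, 1537 bp over group means and 1641 bp with second extremes. The share of genes with an invariant start-site peak was 19.4% and 72.4% at limits of 1.5 and 2, 32.4% and 35.4% at means of 50 and 200, 35.0% with the pseudocount, 40.8%, 65.8%, 67.5% and 58.7% with TMM, total, quantile and GC-trend scaling, 68.1% over group means and 64.1% with second extremes. The CTCF share outside promoters was 4.97% and 8.94% in windows of 200 and 500 bp, beside 1.06% and 2.06% of variable peaks. The share that stayed even from Smad4 off to on was 63.2% at 1.5, 80.2% at 2 and 74.2% at a mean of 200, beside 16.5%, 39.6% and 31.2% of all peaks. The cause of these shifts was not tested.

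Leaving out 1 sample at a time gave 5839 to 7768 peaks, promoter shares of 62.7% to 71.0%, median widths of 1749.5 to 1768 bp and gene shares of 33.8% to 49.3%, with the highest gene share without Liv_OFF_2. Leaving out a sample cannot raise the ratio of a peak, so the rise in number was set in advance. Each such choice kept at least 99.9% of the invariant peaks. Total-read scaling kept 85.8% of the invariant peaks, quantile 84.6%, GC-trend 80.4% and TMM 95.7%, and total-read scaling shifted the median peak by −0.23 to 0.14 on the log2 scale between samples. Liver groups of 2 samples, and reads per peak in the lowest range, limit what can be read. No paired analysis was possible because no result comes from a test.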
